A study of Rattus norvegicus with 8 samples.

Results

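The 7 genes Npy, Bgn, Gpx3, Mcpt1l1, Serpinb6a, Sh3bgr and Ephx1 were followed across all 8 RNA-seq libraries of whole blood from rats of 2 hypertension models, beside the platelet gene Pf4. These 7 of the 17446 genes in the count table were chosen by their measured counts in the DOCA–HS model, where they were higher after than before CMG administration. The values of that contrast are therefore given below as a description without a test, whereas the AngII model, which the choice did not use, was tested. CMG is Chios mastic gum, the resin of Pistacia lentiscus var. Chia.

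All animals were male wild-type Wistar rats, stated to be 12 to 14 weeks old, and every group had hypertension induced by 1 of the models. For the AngII model, angiotensin II was infused at 0.4 mg/kg/day from an osmotic minipump rated for 4 weeks. Blood was compared at week 1, before CMG, and at week 5, after 4 weeks in which CMG, 220 mg/kg, was given orally each day. Week 5 lay past the rated time of the pump, and no pump replacement is described. Rats of the DOCA–HS model had deoxycorticosterone acetate injected weekly at 100 mg/kg with 0.9% NaCl and 1% KCl in the drinking water, and blood was compared at week 3 with that at week 7, CMG having been given in between at the same dose and for as long. Blood was drawn by cardiac puncture into heparin, and each of the 4 groups held 2 libraries. Blood of untreated rats and of CMG-free rats at the later times was not analysed here, so CMG and 4 further weeks of each model cannot be told apart. The labels do not say whether the libraries come from separate rats, and p-values then measure only the spread between these samples. The study's methods describe blood sampling of the rats at both times, so before and after libraries may share rats. The main fits were unpaired, and fits with replicate number as a block are given beside them.

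Libraries held 4149104 to 13205565 counts, of which 61.9% to 84.3% were hemoglobin, leaving 651764 to 4490083 counts for other genes. DOCA–HS after replicate 2 stood apart, with the fewest counts, the highest hemoglobin share and 2686 genes at 10 or more counts, against 6097 to 8280 in the other libraries. Its TMM factor, which rescales a library so that most genes sit at the same level, was 0.343, against 0.776 to 1.88 elsewhere. The main DOCA–HS fold changes are also given without this library. Levels below are counts scaled to library size with the TMM factor (normalized CPM), and they are compared between libraries but not between genes, whose lengths were not used.

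Platelets have no nucleus and carry RNA inherited from the megakaryocytes of the bone marrow, so whole blood RNA holds a platelet share beside that of red cells and leukocytes. Neuropeptide Y is best known as the co-transmitter of sympathetic nerves and a vasoconstrictor, and in rats it is also made by megakaryocytes and stored in platelets. Pf4 encodes platelet factor 4, a chemokine of the platelet alpha granules. In bulk blood, fewer cells of a type and less RNA per cell cannot be told apart.

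Promoter sequences are shown for 4 of the genes. Windows of 250 bases upstream of the gene start were taken from RefSeq on build GRCr8, which held 7 such windows for 5 of the genes (Npy, Gpx3, Mcpt1l1, Serpinb6a and Ephx1). Capitals mark GATAA and GGAAG or their reverse complements TTATC and CTTCC, core letters recognised by GATA and ETS family factors, which are known regulators of megakaryocyte genes. The windows are Npy at chr4:80211861-80212110 on the plus strand, Gpx3 at chr10:39529085-39529334 on the plus strand, Mcpt1l1 at chr15:33876896-33877145 on the minus strand, and the second Ephx1 start at chr13:95263118-95263367 on the minus strand.
Npy: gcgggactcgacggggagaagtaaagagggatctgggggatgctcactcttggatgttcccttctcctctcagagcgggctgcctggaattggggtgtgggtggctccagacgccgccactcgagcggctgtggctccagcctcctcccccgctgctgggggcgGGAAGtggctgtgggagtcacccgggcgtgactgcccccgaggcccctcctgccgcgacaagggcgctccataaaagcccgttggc
Gpx3: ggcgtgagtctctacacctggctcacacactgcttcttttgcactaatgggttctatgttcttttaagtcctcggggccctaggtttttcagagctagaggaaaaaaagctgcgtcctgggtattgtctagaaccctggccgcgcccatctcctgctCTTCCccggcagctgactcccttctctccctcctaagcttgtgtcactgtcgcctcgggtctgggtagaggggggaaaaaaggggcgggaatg
Mcpt1l1: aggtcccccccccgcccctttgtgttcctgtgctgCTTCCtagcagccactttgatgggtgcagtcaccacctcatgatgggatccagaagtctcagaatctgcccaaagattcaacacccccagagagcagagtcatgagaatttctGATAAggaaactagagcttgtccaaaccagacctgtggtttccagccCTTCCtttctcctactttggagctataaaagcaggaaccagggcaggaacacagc
Ephx1, second start: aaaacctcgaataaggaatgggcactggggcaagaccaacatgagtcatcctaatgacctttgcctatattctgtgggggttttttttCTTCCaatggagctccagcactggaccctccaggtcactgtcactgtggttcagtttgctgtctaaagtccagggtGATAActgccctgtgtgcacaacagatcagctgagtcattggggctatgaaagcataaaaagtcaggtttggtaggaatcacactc
GATAA was present in 2 of the 7 windows, those of Mcpt1l1 at position −102 and of the second Ephx1 start at position −86 from the gene start, and 23.5% of 33469 rat promoter windows of that length hold it. GGAAG was present in 6 of the 7 windows, that of Npy at position −86, and 63.3% of all windows hold it. Both windows with GATAA are among those shown. Not shown are the first windows of Serpinb6a and Ephx1, with GGAAG only, and the second of Serpinb6a, with neither. These matches describe letters only.

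The secreted products come first. Npy had 41 and 21 counts before CMG in the DOCA–HS model, a level of 2.27 and 2.23 normalized CPM, and 96 and 18 counts after CMG, a level of 7.38 and 12.7. Before CMG in the AngII model it had 93 and 5 counts (7.31 and 0.845 normalized CPM) and 29 and 3 counts after CMG (4.64 and 0.222). The DOCA–HS groups were apart on this scale, while each AngII group spanned a wide range, with replicate 2 far below replicate 1 both before and after CMG. Across the 8 libraries the level of Npy covered a 57.0-fold range.

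Bgn encodes biglycan, a small leucine-rich proteoglycan of the extracellular matrix. Its level was 15.8 and 25.2 normalized CPM before CMG and 58.9 and 83.7 after CMG in the DOCA–HS model. The AngII values were 51.8 and 10.5 before CMG and 48.1 and 2.66 after CMG. The first replicates of the AngII groups lay between the DOCA–HS groups, and the second replicates lay below every DOCA–HS library. Bgn was the best covered of the 7 genes, with 36 to 766 counts per library.

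Gpx3 encodes the selenium-containing glutathione peroxidase of plasma, which reduces peroxides and is secreted largely by the kidney. It stood at 9.20 and 7.65 normalized CPM before CMG and at 28.4 and 21.1 after CMG in the DOCA–HS model, and at 17.2 and 3.72 before CMG and 15.2 and 1.48 after CMG in the AngII model. It was the only one of the 7 genes that was highest in DOCA–HS after replicate 1; the other 6 were highest in DOCA–HS after replicate 2, the shallow library.

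Mcpt1l1, a mast cell protease 1-like gene of the chymase family, had 1 to 55 counts per library. Its level was 1.22 and 1.06 normalized CPM before CMG and 4.23 and 11.3 after CMG in the DOCA–HS model. Its AngII values were 2.91 and 0.169 before CMG and 1.44 and 0.0740 after CMG, where both replicate 2 values rest on 1 count each. This gene has near-identical neighbouring copies in the rat, so that the split of reads among them is uncertain. Its 152-fold range over the 8 libraries was the widest of the 7 and rests on those single counts.

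Serpinb6a encodes an intracellular clade B serpin, an inhibitor of serine proteases. Its level was 2.22 and 2.97 normalized CPM before CMG and 8.38 and 9.84 after CMG in the DOCA–HS model. The AngII values were 5.11 and 1.01 before CMG and 2.24 and 0.961 after CMG. The AngII groups overlapped, and AngII after replicate 1 lay between the DOCA–HS before libraries.

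Sh3bgr, an SH3-domain-binding glutamate-rich protein gene, stood at 1.05 and 1.59 normalized CPM before CMG and at 4.31 and 10.5 after CMG in the DOCA–HS model, and at 5.11 and 1.01 before CMG and 4.64 and 0.222 after CMG in the AngII model. Here the DOCA–HS after and AngII before groups overlapped, since both first replicates of the AngII model lay above DOCA–HS after replicate 1. Sh3bgr had the same counts as Serpinb6a in the AngII before libraries (65 and 6) and as Npy in the AngII after libraries (29 and 3), in separate lines of the table.

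Ephx1 encodes microsomal epoxide hydrolase, an enzyme of the endoplasmic reticulum that detoxifies epoxides. Its level was 1.22 and 1.06 normalized CPM before CMG and 3.54 and 8.44 after CMG in the DOCA–HS model, and 2.20 and 0.676 before CMG and 1.92 and 1.04 after CMG in the AngII model. Ephx1 was the only one of the 7 with its lowest level in AngII before replicate 2. The other 6 were lowest in AngII after replicate 2, and for all 7 genes the 2 lowest libraries were the second replicates of the AngII model.

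**Figure D1:**
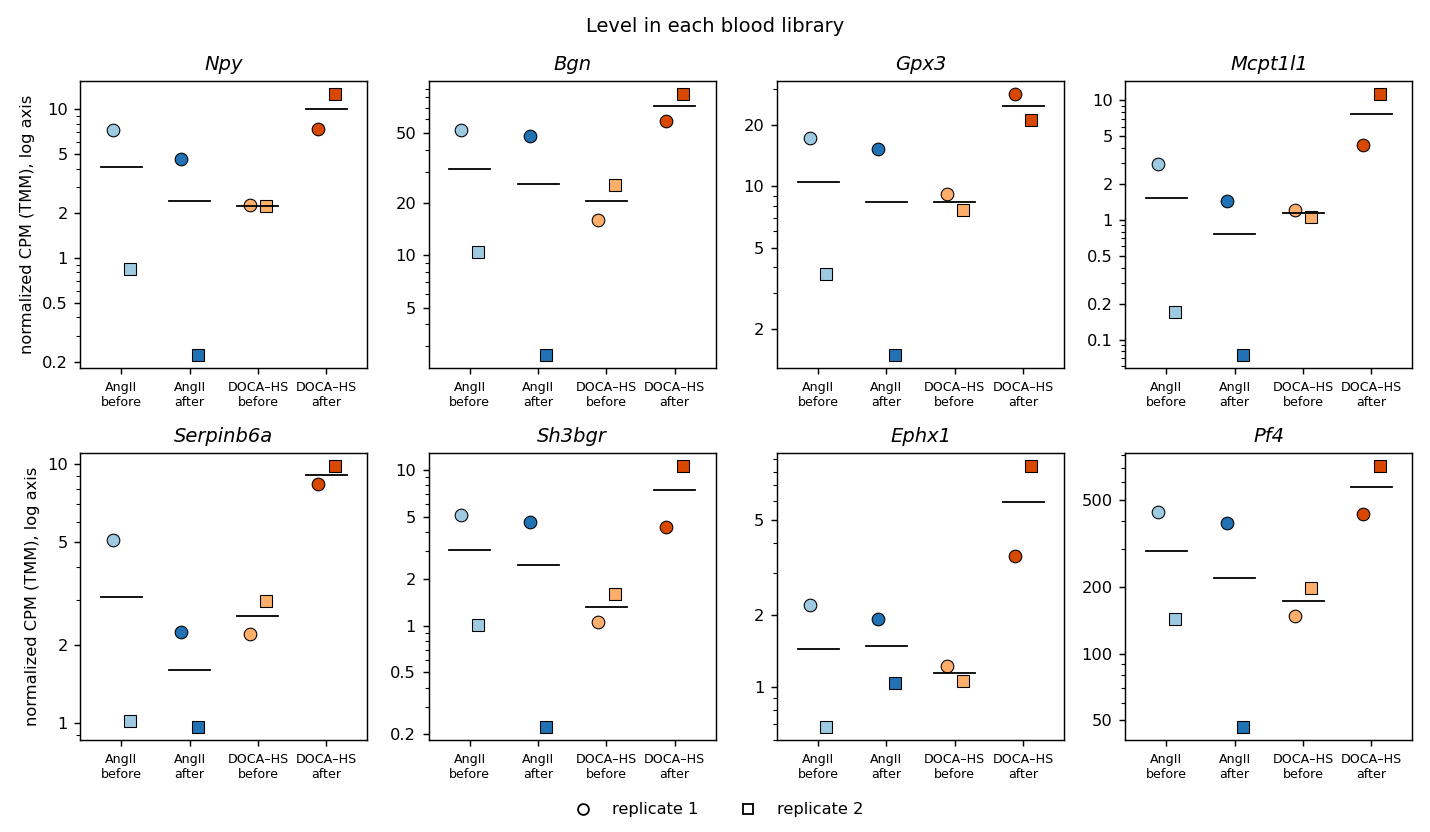
Normalized CPM (TMM, log axis) of the 7 genes and Pf4 in each library, by group, where circles are replicate 1, squares replicate 2 and bars group means. The second AngII replicates (squares) sit lowest in every panel of the 7 genes, and the DOCA–HS after libraries lie above the DOCA–HS before libraries.

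Pf4, for comparison, had 626 to 5623 counts per library. Its level was 148 and 198 normalized CPM before CMG and 430 and 710 after CMG in the DOCA–HS model. Its AngII values were 442 and 143 before CMG and 393 and 46.3 after CMG. Pf4 thus had the shape of the 7 genes, with the DOCA–HS groups apart, both AngII groups wide and the second AngII replicates lowest.

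In group means, the DOCA–HS after group was the highest for all 7 genes. For Npy it was 10.02 ± 3.73 normalized CPM (SD, n = 2), ahead of AngII before with 4.08 ± 4.57, AngII after with 2.43 ± 3.12 and DOCA–HS before with 2.25 ± 0.0285. For Bgn the same order held, with 71.3 ± 17.5, 31.1 ± 29.2, 25.4 ± 32.2 and 20.5 ± 6.64. Only the step from DOCA–HS after to the next group had values that did not overlap, for every gene but Sh3bgr. The DOCA–HS contrast chose the genes, and the share of all genes with such a step was not counted, so nothing is read from this. The lower 3 groups overlapped with their neighbours for all 7 genes.

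The log2 fold change in the DOCA–HS model after against before CMG was 2.07 ± 0.50 (SE) for Npy, 1.80 ± 0.51 for Bgn and 1.57 ± 0.45 for Gpx3. It was 2.52 ± 0.61 for Mcpt1l1, 1.80 ± 0.46 for Serpinb6a, 2.31 ± 0.60 for Sh3bgr and 2.13 ± 0.58 for Ephx1. Pf4, at 1.72 ± 0.63, lay within the range of the 7 genes with TMM and all libraries. It lay below all 7 without the shallow library, at 1.32 against 1.54 to 1.88, and with total counts, at 0.77 against 0.89 to 1.496. The median of the 7 was 2.07, against −0.04 over all 7720 genes tested. By the criterion of a log2 fold change above 1.5 with an unadjusted p of at most 0.05, all 7 counted as higher, as did 1.79% of all genes (0.259% counted as lower and 2.05% in either direction). Since this contrast chose the genes, nothing is read from that median or that count. No gene of the 7720 passed an adjusted p of 0.05 in edgeR's quasi-likelihood test, and 3.17% had an unadjusted p of at most 0.05.

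Both the size of these values and the number past the criterion depended on how libraries were scaled and on single libraries. Without DOCA–HS after replicate 1 the median of the 7 was 2.48, with Mcpt1l1 at 3.27 and Ephx1 at 2.86. Both after libraries lay above both before libraries for 7 of the 7 genes on the TMM scale, where 14.7% of all genes did so. On the scale of total counts this held for 4, Npy, Mcpt1l1, Sh3bgr and Ephx1, against 1.4% of all genes. Total counts moved the median of all genes to −0.76 and that of the 7 genes to 1.13, and none of the 7 then passed the criterion as higher, nor did any other of the 7720 genes. The first after library alone, which is the deeper one, was 2.90 to 4.09 times DOCA–HS before replicate 1 and 2.34 to 3.98 times before replicate 2 over the 7 genes on the TMM scale. On the scale of total counts it was 2.23 to 3.14 times and 2.92 to 4.97 times these libraries. The shallow second after library was 2.29 to 10.02 times DOCA–HS before replicate 1 and 2.76 to 10.59 times before replicate 2 on the TMM scale. On the scale of total counts it was 0.420 to 1.83 times and 0.821 to 3.15 times these libraries. Without the shallow library the log2 fold changes of the 7 genes were 1.54 to 1.88, with a median of 1.73, and all 7 were past the criterion, where 1.15% of all genes were so as higher; as this contrast chose the genes, these counts describe the fits only. Without DOCA–HS before replicate 1 the median was 2.12 and 1 of the 7 passed it, where 0.333% of all genes did so as higher. Without before replicate 2 the median was 2.19 and 2 of the 7 passed it, where 0.757% of all genes did.

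The AngII model was the comparison in which these genes could be tested. No change after CMG was detected there for any of the 7 by edgeR's quasi-likelihood test, with 2 libraries against 2. The log2 fold change was −1.07 ± 1.14 (SE) for Npy (edgeR adjusted p = 0.847), −0.32 ± 1.10 for Bgn (adjusted p = 0.946) and −0.42 ± 0.96 for Gpx3 (adjusted p = 0.927). It was −1.52 ± 1.24 for Mcpt1l1 (edgeR adjusted p = 0.823), −1.15 ± 0.72 for Serpinb6a (adjusted p = 0.784), −0.65 ± 1.07 for Sh3bgr (adjusted p = 0.897) and −0.14 ± 0.65 for Ephx1 (adjusted p = 0.960). All 7 estimates were below 0, with a median of −0.65 against −0.01 over 7201 genes tested, but the standard errors of 5 of them were larger than the estimates themselves. Pf4 stood at −0.40 ± 0.90 (edgeR adjusted p = 0.925).

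By the criterion of size and unadjusted p, 0 of the 7 passed in either direction, where 1.24% of all genes did, 0.333% of them as lower. None of them reached an unadjusted p of 0.05 in the main edgeR fit, where 6.65% of all genes did, nor in DESeq2. The lowest of the 7 in that edgeR fit was 0.151 for Serpinb6a. With equal replicate numbers as a block, edgeR gave an unadjusted p of 0.0177 for Bgn and 0.0421 for Npy. Their adjusted p in that blocked edgeR fit was 0.230 and 0.344. Without the filter on low counts, edgeR gave an unadjusted p of 0.00829 for Npy, 0.00964 for Serpinb6a and 0.0158 for Mcpt1l1, with adjusted p of 0.382, 0.400 and 0.488. For none of the 7 did both after libraries lie above both before libraries (21.3% of all genes) or below them (18.5%). The first replicates alone gave a median ratio of after to before of 0.872, and the second replicates one of 0.398. Within groups, AngII before replicate 1 was 3.26 to 17.2 times before replicate 2 (median 5.04), and after replicate 1 was 1.85 to 20.9 times after replicate 2 (median 18.1). The direction rested on single libraries: without AngII before replicate 1 the median of the 6 genes still tested was 1.12, and without AngII after replicate 2 that of the 7 was 0.29. Without AngII after replicate 1 the median of the 7 was −3.62 and 6 passed the criterion as lower, where 3.76% of all genes did. Without AngII before replicate 2 the median was −1.30 and 3 of the 7 passed it as lower, where 0.711% of all genes did.

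**Figure D2:**
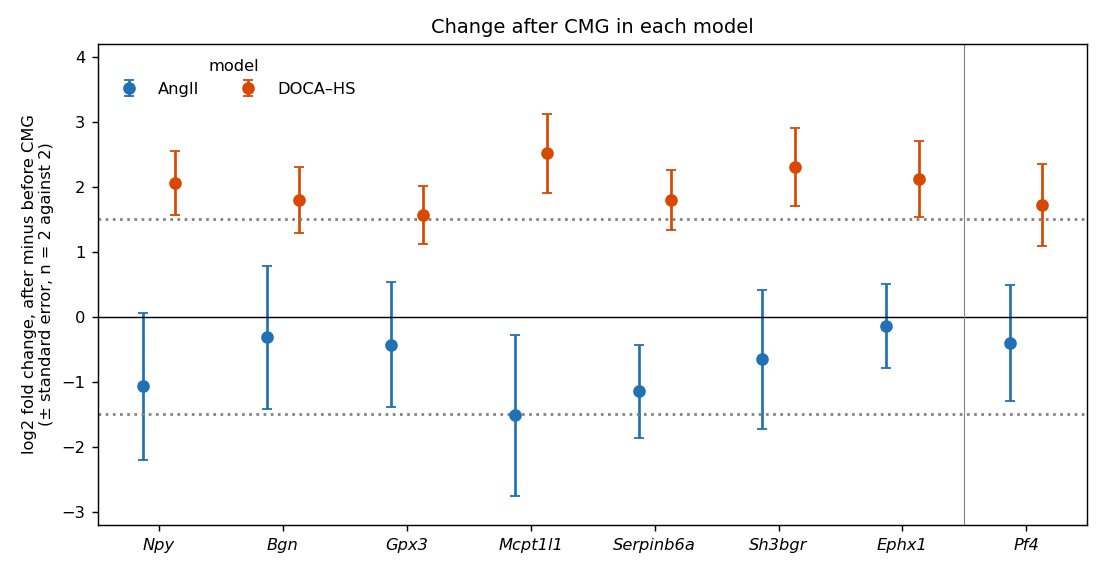
Log2 fold change after minus before CMG with its standard error (vertical axis) for the 7 genes and Pf4 in the AngII (blue) and DOCA–HS (orange) models, with dotted lines at the size criterion of 1.5. The DOCA–HS values lie between 1.57 and 2.52 and chose the 7 genes; the AngII values lie between −1.52 and −0.14, with errors of 0.65 to 1.24.

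The 7 genes were then set against Pf4 within each library, a ratio that no scaling of libraries can change. Counts of Npy per 1000 Pf4 counts were 16.5 and 5.90 in AngII before, 11.8 and 4.79 in AngII after, 15.3 and 11.3 in DOCA–HS before and 17.2 and 17.8 in DOCA–HS after libraries. For Bgn they were 117 and 73.2, 123 and 57.5, 106 and 127, and 137 and 118 in the same order. The DOCA–HS groups did not overlap for Npy and overlapped for Bgn, and the second AngII replicates had the lowest ratios of both genes. The 8 libraries thus covered a 3.72-fold range for Npy and a 2.38-fold range for Bgn, against 57.0-fold and 31.4-fold for their normalized CPM.

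Gpx3 per 1000 Pf4 counts was 38.9 and 26.0, 38.7 and 31.9, 62.0 and 38.6, and 65.9 and 29.7, a 2.54-fold range in which the DOCA–HS after libraries held both the highest value and the second lowest. Sh3bgr covered a 3.10-fold range and Serpinb6a a 3.64-fold range. Mcpt1l1 kept the widest, 13.4-fold, with its single-count libraries at the bottom and DOCA–HS after replicate 2 at the top with 15.8 per 1000. The SD of the log2 values over the 8 libraries was smaller per Pf4 count than in normalized CPM for all 7 genes, at 0.439 to 1.29 against 1.17 to 2.38. The DOCA–HS libraries among them chose the genes and also had Pf4 higher after CMG. The share of all genes with a smaller spread per Pf4 count was not counted, so nothing is read from these SDs or the ranges above. Both after libraries lay above both before libraries in this ratio for 4 of the 7 in the DOCA–HS model, Npy, Mcpt1l1, Sh3bgr and Ephx1, as for 0.168% of all genes; this contrast chose the genes. In the AngII model this held for none of the 7 and for 4.62% of all genes.

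In AngII after replicate 2, the ratios of Serpinb6a and Ephx1 were the highest of the 8 libraries. Serpinb6a stood there at 20.8 per 1000 Pf4 counts (exact 95% Poisson interval 11.1 to 35.5, for counting error of the gene only), against 5.70 to 11.6 in the other AngII libraries and 13.9 to 19.5 in the DOCA–HS libraries. Its interval reached below the highest of the other AngII values and below all DOCA–HS values. Ephx1 stood there at 22.4 (12.2 to 37.5), against 4.72 to 4.98 in the other AngII libraries and 5.36 to 11.9 in the DOCA–HS libraries, all below its interval. These ratios rest on 13 counts of Serpinb6a, 14 counts of Ephx1 and 626 counts of Pf4. None of the other 5 genes had its highest ratio in this library.

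**Figure D3:**
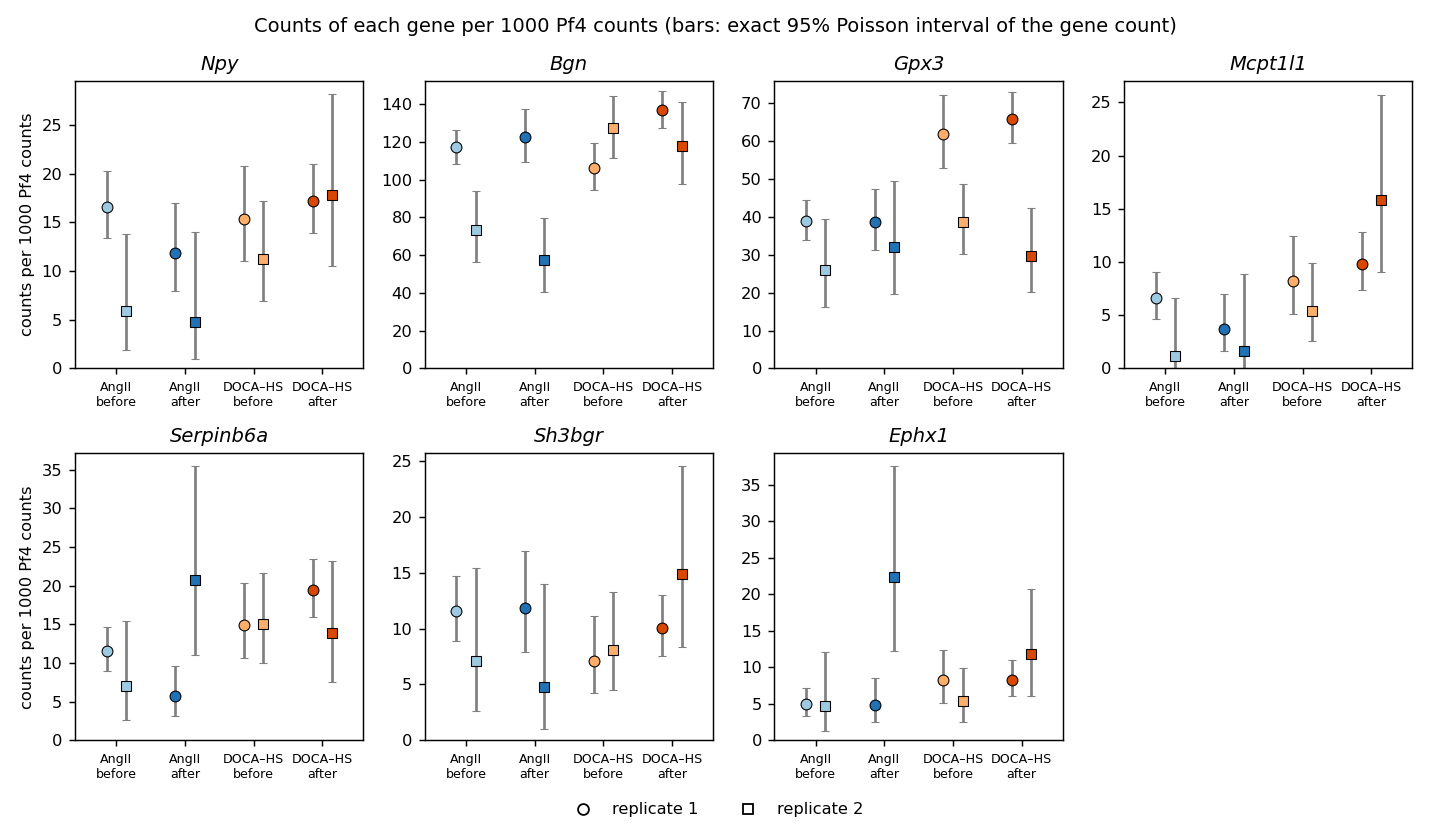
Counts of each of the 7 genes per 1000 Pf4 counts (vertical axis from 0) in each library, with exact 95% Poisson intervals of the gene's count, circles for replicate 1 and squares for replicate 2. Bgn lies between 57.5 and 137 in all 8 libraries, while Serpinb6a and Ephx1 are highest in AngII after replicate 2, at 20.8 and 22.4.

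The log2 level of each gene was set against that of Pf4 across the 8 libraries, 4 of which, the DOCA–HS libraries, had chosen the genes and also had Pf4 higher after CMG. Pearson's r was 0.993 for Sh3bgr, 0.990 for Bgn, 0.977 for Npy, 0.943 for Gpx3, 0.912 for Mcpt1l1, 0.859 for Serpinb6a and 0.789 for Ephx1, and Spearman's rho was 0.905 to 0.976. These are descriptions over 8 points that share each library's depth, TMM factor and group. Without the 2 libraries farthest from the median of Pf4, AngII after replicate 2 and DOCA–HS after replicate 2, r was 0.759 to 0.996 over 6 libraries. In the 4 AngII libraries alone, which the choice did not use, 6 of the 7 genes had the same order of libraries as Pf4, and Ephx1 differed only in its lower 2; 6.08% of all 7201 genes had that order. Among the 7 genes themselves, the 21 pairs had r from 0.749, for Gpx3 with Ephx1, to 0.982, for Npy with Bgn, with a median of 0.917.

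**Figure D4:**
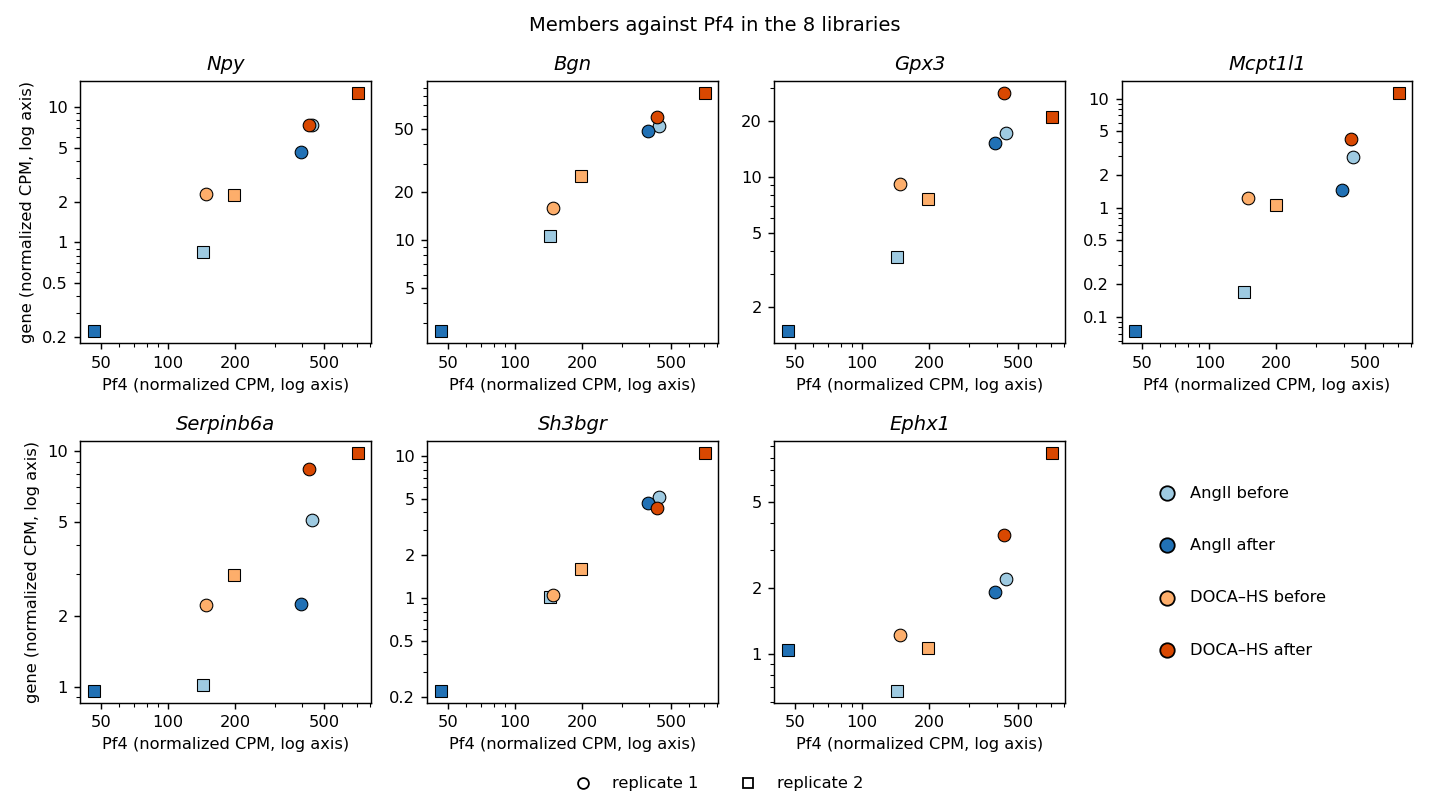
Normalized CPM of each of the 7 genes (vertical) against that of Pf4 (horizontal), both on log axes, 1 point per library, coloured by group, with circles for replicate 1 and squares for replicate 2. Points run from AngII after replicate 2 at 46.3 to DOCA–HS after replicate 2 at 710 for Pf4, most tightly for Sh3bgr (r = 0.993) and least for Ephx1 (r = 0.789).

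The genes most like each profile were ranked by Pearson's r of log2 CPM over the 8 libraries among 7394 genes with a mean of at least 10 counts. For Npy they were Cst3 (r = 0.992), Rpap1 (0.991), Sod2 (0.989), Pttg1ip (0.988) and Gsn (0.988), and Pf4 was 21st in rank. For Bgn they were Clu (0.996), Ret (0.996), Myl9 (0.996), Syt5 (0.995) and Kif2a (0.994), and Pf4 was 17th in rank. Clu encodes clusterin, which platelets hold in their granules, and Myl9 the regulatory light chain of myosin; both were on the list of platelet and megakaryocyte genes. For the mean profile of the 7 genes the closest were Pttg1ip (0.988), Patz1 (0.987), Gsn (0.986), Liph (0.985) and Atp2a3 (0.984), with Pf4 34th in rank. Of the 20 platelet list genes ranked, 6, 8 and 5 were among the first 50 for Npy, Bgn and the mean profile.

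The list of platelet and megakaryocyte genes held 25 genes in the table, with Gp1bb at 0 in every library, and its most abundant were Nfe2, Pf4, Nrgn, Myl9 and Clec1b. On the TMM scale its summed level moved with that of the 7 genes: it was 1062 and 1547 normalized CPM before and 2719 and 4317 after CMG in the DOCA–HS model, and in the AngII model 2772 and 1124 before and 2523 and 457 after CMG. As a share of total counts the DOCA–HS groups overlapped, at 0.199% and 0.178% before and 0.391% and 0.148% after CMG, the last being the shallow library. All 20 list genes tested in the DOCA–HS model had a log2 fold change above 0, where 47.5% of all genes did, with a median of 1.23, and 6 passed the criterion as higher, as did 1.79% of all genes (Nrgn, Pf4, Treml1, Vwf, Ptgs1 and Cavin2). Without the shallow library 20 of 21 tested were above 0, where 48.7% of all genes were, the median was 1.22 and 1 passed the criterion, as did 1.15% of all genes. That gene was the integrin Itgb3 at 1.604, whereas the 6 named above then stood under 1.5, Nrgn at 1.42, Pf4 at 1.32, Treml1 at 0.88, Vwf at 0.83, Ptgs1 at 1.21 and Cavin2 at 1.43. Of 19 tested in the AngII model 1, Tbxas1, was above 0, where 49.0% of all genes were, with a median of −0.35, and none reached an unadjusted p of 0.05 in edgeR. The part of platelet RNA in the levels of the 7 genes was not tested.

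Scaled to the counts of this platelet list instead of TMM, a setting chosen after seeing the data, the median log2 fold change of the 7 genes in the DOCA–HS model was 0.65 and none passed the criterion. That scaling moved the median of all 7720 genes to −1.38, with 4 genes called higher and 28.3% called lower. Nfe2 and Gfi1b, which red cell precursors also express, make up part of that list, and without them the median of the 7 was 0.46, that of all genes −1.57. The order of the genes was kept at its ends in that setting, with Mcpt1l1 at 0.93 and Gpx3 at −0.0030. Without Nfe2 and Gfi1b the same setting in the AngII model put Ephx1 at 1.55 and Serpinb6a at 0.58, where the median of all genes was 1.41.

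**Figure D5:**
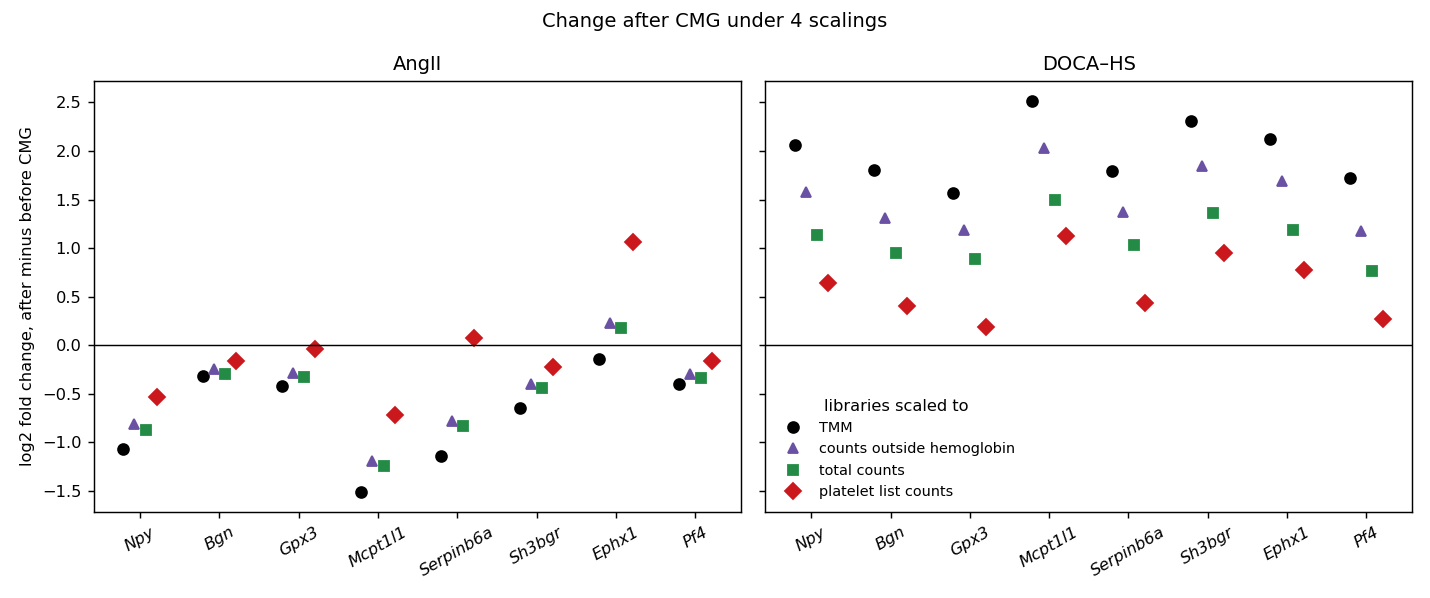
Log2 fold change after minus before CMG (vertical axis) for the 7 genes and Pf4 under 4 scalings of the libraries, in the AngII (left) and DOCA–HS (right) models. In the DOCA–HS model the median of the 7 genes falls from 2.07 with TMM to 1.13 with total counts and 0.65 with platelet list counts.

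Markers of other cells and tissues ranged from absent to well counted. Of 13 sympathoadrenal genes, 11 had no count in any library, Th and Dbh of catecholamine synthesis and the granule gene Chga among them. The vesicular monoamine transporter Slc18a2, which platelets also use to load serotonin, had nearly all counts of that list. Slc18a2 had 52 and 6 counts before and 28 and 4 after CMG under AngII infusion, and 35 and 34 before and 69 and 3 after CMG under DOCA–HS. The 14 mast cell and basophil genes summed to 9 to 54 counts per library, and the level of the histidine decarboxylase gene Hdc, the one tested, had a log2 fold change of −1.29 in the DOCA–HS model where Mcpt1l1 had 2.52 (−1.07 and 1.88 without the shallow library). Mcpt1, Mcpt8, Il4 and Prss34 of that list had no count in any library. The 16 heart and striated muscle genes summed to 0 to 5 counts per library, with 11 at 0 throughout, and the 10 kidney tubule genes to 1 to 43 counts, with 6 at 0 throughout, where 33.0% of all genes in the table had no count in any library. The 14 hepatocyte genes, 5 of them at 0 throughout, summed to 121 to 797 counts, nearly all from the transferrin gene Tf. The 12 fibroblast and smooth muscle matrix genes, 4 of them at 0 throughout, summed to 35 to 1918 counts, nearly all from the fibronectin gene Fn1, which monocytes and macrophages also express. Fn1 stood at 104 and 77.5 normalized CPM before and 117 and 23.9 after CMG in the DOCA–HS model, and Tf at 37.4 and 78.5 before and 48.9 and 74.5 after CMG, so the groups overlapped for both. The sums of the 13 hepatocyte genes other than Tf did not overlap between the groups: they were 1 and 0 counts before and 32 and 15 after CMG in the DOCA–HS model, and 2 and 0 before and 8 and 13 after CMG in the AngII model. Albumin (Alb) had 0 and 0 counts before and 11 and 4 after CMG in the DOCA–HS model, and Hpd, an enzyme of tyrosine breakdown, 0 and 0 before and 9 and 5 after CMG. In the AngII model Alb had 0 and 0 before and 1 and 6 after CMG. Hpd had 2 and 0 before and 0 and 1 after CMG there, so its groups overlapped. The sums without Tf were thus higher after CMG in both models, also in normalized CPM. They rest on 0 to 32 counts per library, and the share of other sums this low without overlap was not counted. On that TMM scale the 7 genes were higher after CMG in the DOCA–HS model and overlapped in the AngII model. In raw counts the DOCA–HS groups overlapped for each of the 7 genes. With total counts they were apart for 4 of the 7, against 1.4% of all genes. The part of these sources in the levels of the 7 genes was not tested. Of the blood cells other than platelets, erythroid genes had a median log2 fold change of 0.50 in the DOCA–HS model and monocyte genes one of 0.40, while neutrophil genes had −0.30, T cell genes −0.44 and B cell genes −0.92, against 2.07 for the 7 genes. This contrast chose the 7 genes, so nothing is read from their lead over the genes of other cells. Without the shallow library the medians of these blood cell lists were −0.29, 0.70, −1.18, −0.60 and −0.64 in the same order, so that of the erythroid genes changed sign. In that fit 48.7% of all genes were above 0. Of the genes tested, 7 of 8 monocyte genes were, with Fcgr3a at 1.57 and Cx3cr1 at 1.58. So were 3 of 10 erythroid, 2 of 9 neutrophil, 2 of 9 T cell and 1 of 8 B cell genes. The AngII medians of these lists were −0.47, 0.96, −0.26, −0.40 and 0.25 in the same order.

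Relatives of the 7 genes were mostly too low to test. The receptors Npy1r, Npy2r, Npy4r and Npy5r had no count in any library, and Dpp4, a peptidase that trims neuropeptide Y, had a log2 fold change of −0.34 in the DOCA–HS model (0.24 without the shallow library) and of 0.22 in the AngII model (edgeR adjusted p = 0.868). No small leucine-rich proteoglycan other than Bgn, no mast cell protease other than Mcpt1l1 and no epoxide hydrolase other than Ephx1 passed the filter on low counts. Of the glutathione peroxidases, Gpx1 and Gpx4, the cytosolic enzyme and the one that reduces lipid peroxides, were tested beside Gpx3. Gpx1 had a log2 fold change of 1.31 ± 1.02 (SE) and Gpx4 of 1.43 ± 0.84 in the DOCA–HS model, and of −0.36 and −0.79 in the AngII model (edgeR adjusted p = 0.752 for Gpx4). Without the shallow library the DOCA–HS values turned to −0.66 for Gpx1 and −0.41 for Gpx4, while that of Gpx3 was 1.75. Neither passed the criterion in either model with all libraries.

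Of the other clade B serpins 4 were tested in the DOCA–HS model. Where Serpinb6a had a log2 fold change of 1.80, in the DOCA–HS model, Serpinb6b had −0.01, Serpinb1a −0.05 and Serpinb9, an inhibitor of granzyme B, −0.42, while Serpinb10 had 1.34 without passing the criterion. Serpinb6b stood at −0.32 and Serpinb9 at 0.44 in the AngII model. Of the SH3BGR family, Sh3bgrl had −0.23 and Sh3bgrl3 1.08 in the DOCA–HS model, against 2.31 for Sh3bgr, and −0.09 and 0.09 in the AngII model. None of these relatives was called in either model with all libraries. Without the shallow library Serpinb10 passed the criterion at 1.54 and Serpinb6b stood at −0.71, Serpinb1a at 0.17, Serpinb9 at 0.14, Sh3bgrl at −0.10 and Sh3bgrl3 at 0.51.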

How the data were processed

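Whole blood RNA was sequenced in 8 libraries with reads of 101 bases. Per the labels and the study's methods, the authors aligned reads to rn6 with HISAT2 and deposited raw counts per gene from HTSeq (reverse strand), with hemoglobin annotation said to be removed, although 2 hemoglobin genes hold 61.9% to 84.3% of the counts. No line of the table names no gene. Per the study's methods, the library kit was directional.

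From these counts, edgeR 4.0.16 (R 4.3.3) fitted after against before CMG within each model, with TMM scaling, filterByExpr, the quasi-likelihood test and Benjamini-Hochberg adjustment over all genes tested. The criterion was an absolute log2 fold change above 1.5 with an unadjusted p of at most 0.05, as in the study. Single values of 2 against 2 libraries were not tested by permutation, which cannot go below an exact two-sided p of 0.333. Log2 CPM for correlations used a prior count of 2. Alternatives were DESeq2 1.42.0, limma-voom (limma 3.58.1), other scalings and filters, all 8 libraries in 1 fit, a replicate block and leaving out each library. The scripts were tested on simulated data. Replicates of a group differed beyond sampling noise, with a chi-square of 17.6 to 104 per degree of freedom.

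The genes, the cell type lists and the relatives were chosen with earlier results of these data known. Named beyond the 7 genes and Pf4 were the 5 most abundant genes of a list and those at 0, relatives with a mean of at least 10 counts or at 0, and the 5 genes most like each profile. Genes named as passing the criterion or for their level within a list were chosen after their values were seen. Promoter windows are from RefSeq on GRCr8, another build than that of the counts, and were matched by symbol. Poisson intervals cover counting error only.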

Additional observations from a re-analysis of the deposited data

How the results depend on the processing

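In the AngII model none of the 7 genes passed the criterion under the settings tried, except that without the filter on low counts 1 did, Mcpt1l1 at −1.55 (Npy at −1.09 and Serpinb6a at −1.17 had the unadjusted p given above), and that leaving out 1 library gave 0 to 6; a filter of 10 counts in every library left 2 of the 7 tested. The AngII median was −1.25 with limma-voom (Npy −2.61, Sh3bgr −2.39, Mcpt1l1 −2.33, Gpx3 −1.20 and Bgn −0.94) and −0.37 with DESeq2. Leaving out 1 library moved the AngII median between −3.62 and 1.12, Npy between −4.30 and 1.36, Bgn between −3.62 and 1.29, Gpx3 between −2.91 and 1.13, Serpinb6a between −1.83 and 0.59, Sh3bgr between −3.88 and 1.10, Ephx1 between −0.68 and 1.07, Mcpt1l1 (not tested without AngII before replicate 1) between −4.41 and −0.29 and Pf4 between −2.71 and 0.65. In those fits the lone library of a group was assumed to vary like the other group. Ephx1 turned positive in the AngII model with total counts (0.18), with counts outside hemoglobin (0.22), with the replicate block (0.10) and with platelet list counts (1.06, or 1.55 without Nfe2 and Gfi1b). With platelet list counts Serpinb6a was at 0.073 (0.58 without these 2 genes), and without them Gpx3 was at 0.14 and Pf4 at 0.0020. In the DOCA–HS model 7 of the 7 passed the criterion with TMM, 0 with total counts, 2 with counts outside hemoglobin, 3 with all 8 libraries in 1 fit and 0 with platelet list counts, with or without Nfe2 and Gfi1b; leaving out 1 library gave 1 to 7, with medians of 1.73 to 2.48. The DOCA–HS median was 1.13 with total counts, 0.65 with platelet list counts and 0.46 without these 2 genes, when Gpx3 was at −0.0030. Total counts in place of TMM put the AngII median of all genes at 0.36 instead of −0.01 and the DOCA–HS one at −0.76 instead of −0.04; the cause was not tested. Equal replicate numbers are not stated to pair samples, and deviations of equally numbered libraries correlated at 0.415 (AngII) and 0.309 (DOCA–HS) over 7994 genes; with the replicate block the median of the 7 was −0.80 with 0 called in the AngII model, although Bgn (−0.85, edgeR unadjusted p = 0.0177, adjusted p = 0.230) and Npy (−0.84, unadjusted p = 0.0421, adjusted p = 0.344) then fell under an unadjusted p of 0.05, and 2.06 with 7 called in the DOCA–HS model. Depth limits several of the 7 genes. Npy, Mcpt1l1 and Sh3bgr each had 6 or fewer counts in both second AngII replicates, and Ephx1 had a mean of 18.5 counts per library.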
